A study of Mus musculus with 8 samples.

Results

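The nuclear genes for the proteins of the mitochondrial ribosome were followed in mouse regulatory T (Treg) cells labelled deficient or sufficient for Bcl11b. Bcl11b is a zinc finger protein that regulates transcription in T cells. Members were taken by symbol, as Mrpl or Mrps followed by a number and, in a few cases, a letter from a to c, which gave 77 of the 23997 genes in the table, 48 named for the large subunit (Mrpl) and 29 for the small subunit (Mrps). RNA sequencing covered 8 libraries of CD4+YFP+ cells sorted from draining lymph nodes and spleen of C57BL/6 mice, 4 labelled Bcl11b deficient (Bcl11b f/f Foxp3-YFP-Cre/+) and 4 labelled Bcl11b sufficient (Bcl11b f/+ Foxp3-YFP-Cre/+). Both groups carried 1 Foxp3 allele that drives a YFP-Cre fusion, so Cre was active where Foxp3 is expressed, and the sufficient group also carried 1 floxed copy of Bcl11b. Foxp3 lies on the X chromosome, and animals heterozygous for such an allele keep Treg cells without Cre beside the sorted ones. The labels give no age for the animals. The comparison asked whether expression of these genes differs between Treg cells with both copies of Bcl11b floxed and Treg cells with 1 floxed copy. The reference is therefore not a group free of floxed Bcl11b.

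The mitochondrial ribosome translates the few messenger RNAs that are encoded by mitochondrial DNA, all of them for subunits of the respiratory chain and ATP synthase. Its ribosomal RNAs come from mitochondrial DNA, while its proteins are encoded in the nucleus, made in the cytosol and imported. The small subunit holds the decoding centre, the large subunit forms the peptide bonds, and many proteins of both have no bacterial counterpart. Treg cells are known to depend on oxidative metabolism. Symbols do not follow the structure in every case. The products of Mrps18a and Mrps30 sit in the large subunit, and that of Mrps36 is known as a component of the 2-oxoglutarate dehydrogenase complex.

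Values are FPKM, fragments scaled to transcript length and to library size, so levels of different genes can be compared per length. The 8 columns of the table held 5 separable libraries. Within the deficient group replicate 1 was close to 3 and replicate 2 to 4, and within the sufficient group replicate 1 was close to 3. These pairs differed by 0.854 to 1.09 times the sampling noise of their reads, against 1.62 to 2.34 times in the 9 other pairs of the same group. Pairs under 1.5 times the noise were represented by their mean, counted as 1 sample, and n is 2 for the deficient and 3 for the sufficient group. The labels do not tie libraries to separate animals, and p-values therefore reflect only how far these libraries spread, which may be technical. Depth was approximately 2880000 to 12800000 fragments per column. In both groups it was lower in replicates 1 and 2 (at most 5960000) than in replicates 3 and 4 (at least 9680000). Each averaged pair joined a shallower and a deeper column, while sufficient replicate 2 was a shallower and sufficient replicate 4 a deeper column alone. Bcl11b itself was at 18.7 to 24.6 FPKM in the deficient columns and at 39.1 to 46.5 FPKM in the sufficient columns (log2 fold change -0.95, SE 0.14, limma adjusted p = 0.0238). The call was lost in 7 of 23 alternatives, among them equal totals (adjusted p = 0.0811), no filter (0.0726), and the fits without sufficient replicate 2 (0.0602), deficient replicates 1 and 3 (0.0774), deficient replicates 2 and 4 (0.133) or sufficient replicates 1 and 3 (0.0522), while the log2 fold change stayed between -1.13 and -0.75. This is a total over the gene and says nothing of the deleted exons. The Treg and T cell genes Foxp3, Il2ra, Cd3e, Cd4 and Ikzf2 together measured 842 to 876 FPKM in the deficient and 941 to 992 FPKM in the sufficient columns. Foxp3 (log2 fold change -0.28), Il2ra (-0.66), Cd3e (-0.13) and Ikzf2 (-0.55) were lower without overlap, and Cd4 (0.17) was higher without overlap. None of them was called, Il2ra having the lowest limma adjusted p (0.0783). Markers of some other cells were higher in deficient columns. The summed level of 14 macrophage markers was 380 to 732 FPKM against 26.4 to 98.5 FPKM, with 9 of 14 called higher, and that of 9 NK cell markers was 332 to 384 FPKM against 6.45 to 25.8 FPKM, with 5 of 8 tested called higher. Most of that NK sum was Fcer1g, at 241 to 286 FPKM in deficient columns, and Tyrobp, at 36.8 to 71.3 FPKM, which myeloid cells also express. Klrd1 (log2 fold change 3.6), Klrk1 (1.78) and Gzma (3.3) were also called higher, with limma adjusted p = 0.00782, 0.018 and 0.0259. Klrb1c (0.518) was higher without overlap but was not called. Of the remaining NK cell markers, Eomes (log2 fold change 0.04) and Prf1 (-0.13) were not called, and Ncr1, at most 0.644 FPKM, was under the filter. Dendritic cell markers summed to 21.9 to 32.7 against 8.99 to 13.5 FPKM, with 2 of 4 tested called higher. These were Siglech (log2 fold change 2.11, limma adjusted p = 0.0319) and Batf3 (1.66, 0.0366). The largest part of that sum was Irf8, at 11.3 to 20.4 against 8.61 to 10.9 FPKM, which was not called (limma adjusted p = 0.266). Sums overlapped for B cell markers, at 17.7 to 21.9 against 14.2 to 23.8 FPKM, and for CD8 T cell markers, at 8.26 to 13 against 11.4 to 15.1 FPKM. The B cell sum joined genes that moved in opposite directions. Of 3 tested, Ly6d was called higher (log2 fold change 1.1, limma adjusted p = 0.0236). Cd79a (0.385) was higher and Cd79b (-0.598) lower without overlap, and neither was called. None of the macrophage or NK markers in the table was at 0 in all columns. Their part in the differences below was not tested, and fewer cells of a type and less RNA per cell cannot be told apart in such bulk samples.

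As a group, mitochondrial ribosomal protein genes held nearly the same share of total FPKM in both groups. The 77 genes summed to 0.448% ± 0.0267 of the library total in deficient cells (SD, n = 2) and 0.438% ± 0.0112 in sufficient cells (SD, n = 3). Large subunit genes held 0.289%, 0.307%, 0.279% and 0.297% of the total in deficient replicates 1 to 4 and 0.283%, 0.290%, 0.275% and 0.279% in sufficient replicates 1 to 4. Small subunit genes held 0.145%, 0.173%, 0.146% and 0.157% in deficient replicates 1 to 4 and 0.155%, 0.161%, 0.148% and 0.154% in sufficient replicates 1 to 4. The groups overlapped for both subunits, and the difference in means was smaller than the SD of the deficient libraries. In summed FPKM, which is not divided by the total, the 77 genes reached 2169 ± 177 in deficient and 2461 ± 181 in sufficient libraries. The deficient sum was 88.1% of the sufficient level, without overlap between the averaged libraries (at most 2294 against at least 2299). Small subunit sums (86.0%) did not overlap either, and large subunit sums (89.3%) did. As single columns, deficient replicate 2 (2339) lay above sufficient replicate 2 (2299) for the 77 genes. The column totals themselves ran from 474416 to 495435 FPKM in deficient and from 509592 to 613276 FPKM in sufficient cells.

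**Figure D1:**
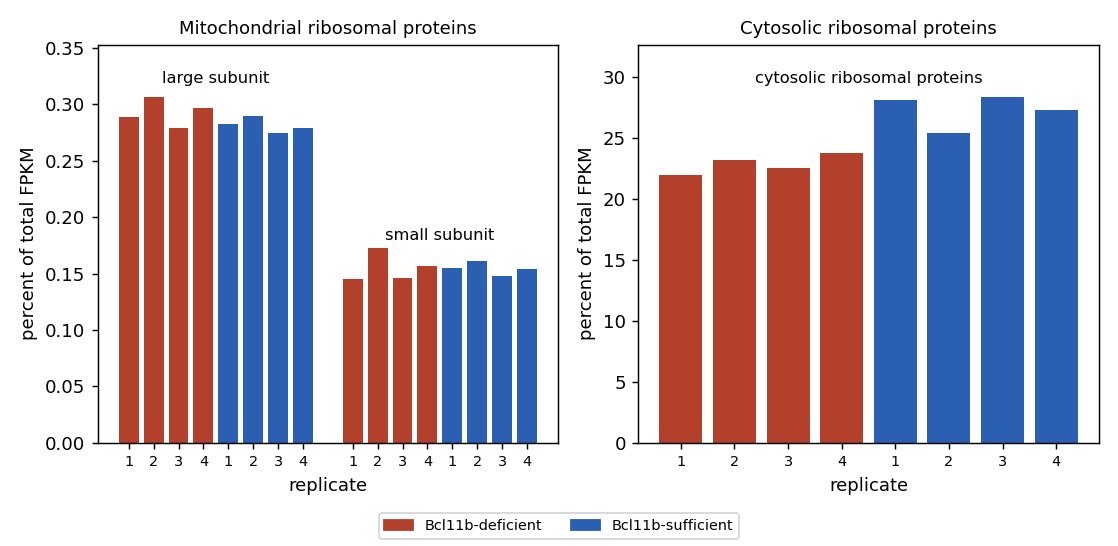
Percent of total FPKM in each deposited column (bars, starting at 0) for the large and small subunit genes of the mitochondrial ribosome and, on its own axis, for cytosolic ribosomal protein genes; columns 1 and 3 of each group and columns 2 and 4 of the deficient group are near-identical pairs. Bars of both groups overlap for the mitochondrial genes, from 0.275% to 0.307% (large) and 0.145% to 0.173% (small), while the cytosolic bars reach at most 23.8% in deficient and at least 25.4% in sufficient columns.

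Cytosolic ribosomal protein genes, which serve translation of nuclear messages, are shown for contrast. The 85 genes of that family in the table held 22.9% ± 0.885 of total FPKM in deficient libraries (SD, n = 2) and 27.0% ± 1.44 in sufficient libraries (SD, n = 3), without overlap. These genes are part of the total, so a lower cytosolic share raises the shares of all other genes, the mitochondrial family included. The mitochondrial share was not computed with cytosolic genes left out of the total. Summed FPKM of the mitochondrial family was 1.93% and 1.99% of the cytosolic sum in the 2 deficient libraries, and 1.53%, 1.78% and 1.58% in the 3 sufficient libraries. This ratio does not depend on how libraries are scaled, and the lowest deficient value lay above the highest sufficient value. Of 83 cytosolic genes tested by limma, 0 were called lower (0.697% of all genes tested) and 1 was called higher (1.93%). Their median log2 fold change was -0.43. At an unadjusted limma p under 0.05, 36 were lower (8.45% of all genes tested) and 1 was higher (9.36%). The balance of the mitochondrial subunits overlapped between groups. The sum over large subunit genes was 1.95 and 1.83 times that over small subunit genes in the deficient libraries and 1.84, 1.8 and 1.81 times in the sufficient libraries.

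Gene by gene, fold changes in FPKM were small and mostly below 0. All 77 genes passed the filter of a mean of at least 1 FPKM and were tested among 10614 genes on log2(FPKM + 1) by limma, where 1 of 48 large subunit genes and 0 of 29 small subunit genes were called lower (0.697% of all genes tested) and 0 were called higher (1.93% of all genes tested). At an unadjusted limma p under 0.05, 4 large and 5 small subunit genes were lower (8.45% of all genes tested) and 0 were higher (9.36%). The fitted log2 fold change was below 0 in 39 of 48 large and 27 of 29 small subunit genes, against 52.1% of all genes tested. Its median was -0.12 for the large and -0.17 for the small subunit, against -0.01 over all genes, and turned to 0.09 and 0.04 after libraries were scaled to equal totals, where the median of all genes was 0.18. Under both scalings 37 large and 27 small subunit genes lay below the median of all genes tested. The groups did not overlap, with deficient lower, for 9 large (18.8%) and 11 small subunit genes (37.9%), against 17.9% of all genes tested, and for 0 members with deficient higher. With equal totals those counts were 1 and 2 lower and 8 and 1 higher, against 5.20% and 39.7% of all genes. Without sufficient replicate 2 the groups were separate, with deficient lower, for 23 large and 17 small subunit genes, against 27.3% of all genes. The medians were -0.05 (large) and -0.10 (small) without deficient replicates 1 and 3, and -0.21 and -0.31 without deficient replicates 2 and 4.

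**Figure D2:**
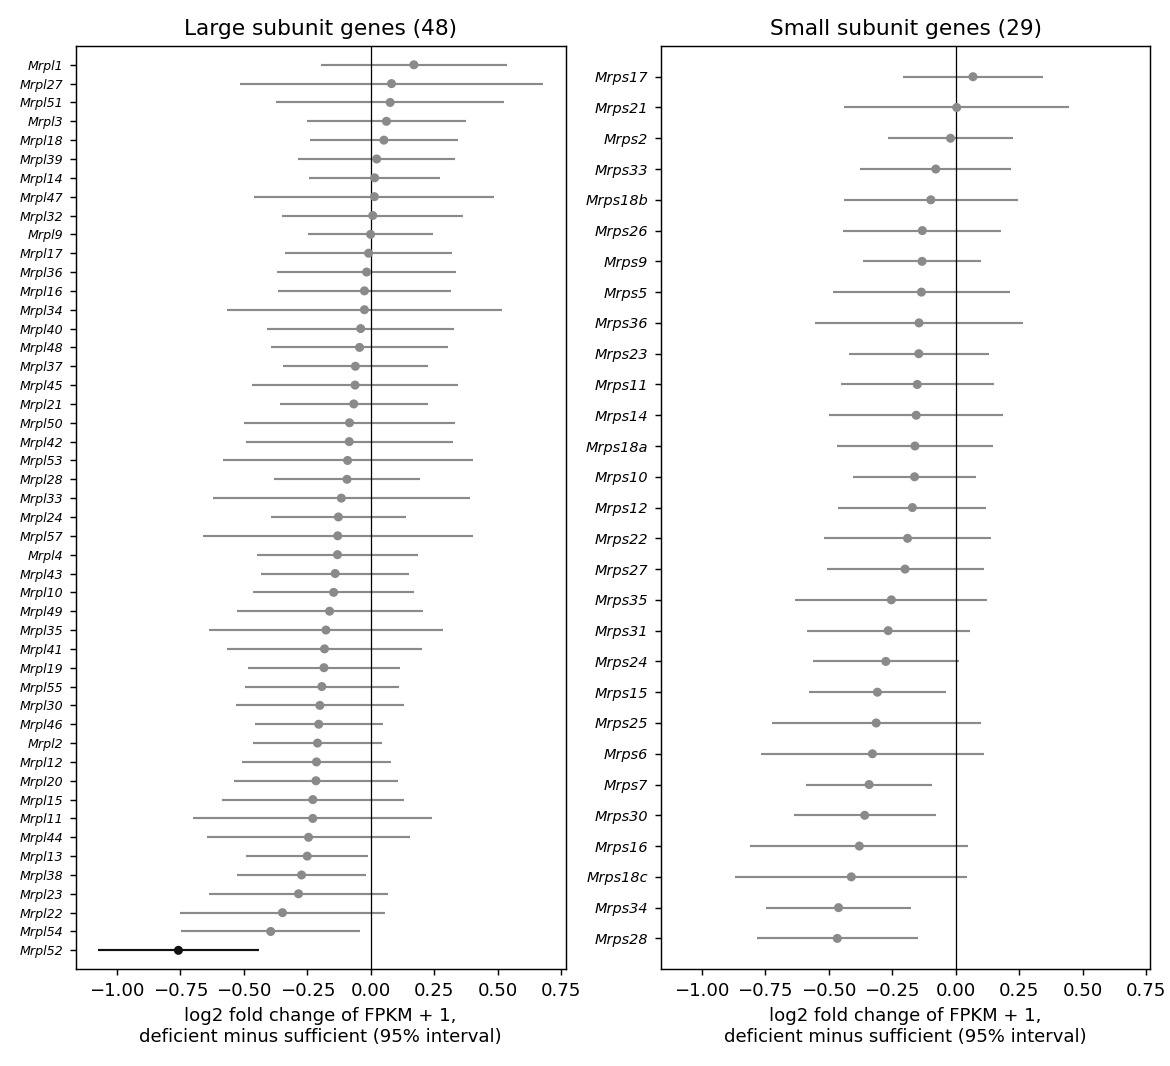
Log2 fold change of FPKM + 1 (deficient minus sufficient, points) with 95% limma intervals (lines) for the 48 large and 29 small subunit genes, ordered by fold change; black marks an adjusted p under 0.05 and grey the rest. Mrpl52 alone is black, at -0.76, and the other points lie between -0.47 and 0.17.

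**Figure D3:**
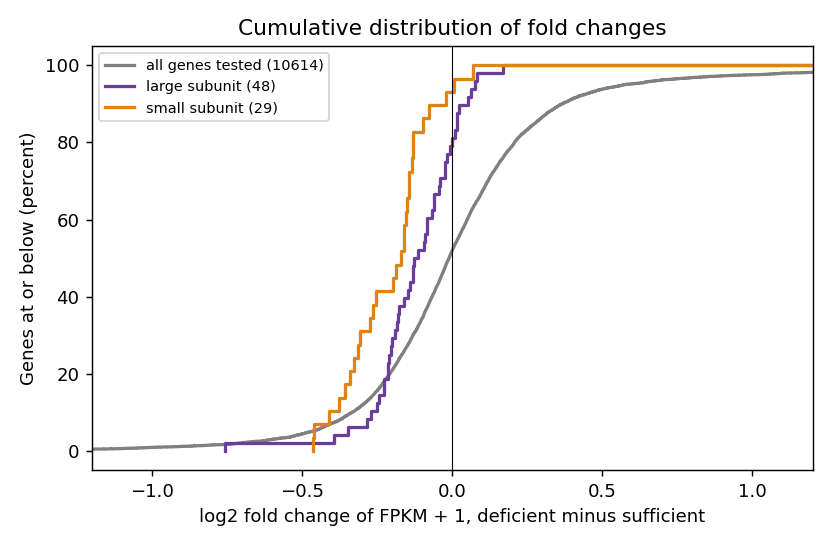
Cumulative percent of genes at or below a given log2 fold change of FPKM + 1 (deficient minus sufficient) for all 10614 genes tested (grey), large subunit (purple) and small subunit genes (orange); the x axis is limited to 1.2 in both directions. At 0 the curves pass 52.1%, 81.2% and 93.1%.

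Taken gene by gene, the spread of these libraries allows a bound on the differences between them at the deposited scaling. The 95% interval of the log2 fold change lay within 2-fold in both directions for 76 of 77 members, against 9467 of all 10614 genes tested. Its median half-width was 0.34 for large and 0.31 for small subunit genes, against 0.33 over all genes. These unadjusted intervals reflect only the spread of libraries that the labels do not tie to separate animals, so they do not bound the effect of the genotype. They also do not include the choice of scaling. Equal totals moved the median fold change from -0.12 to 0.09 (large) and from -0.17 to 0.04 (small). Mrpl9, an ancient large subunit protein with a bacterial counterpart, measured 57.0, 59.1, 53.3 and 56.3 FPKM across deficient columns 1 to 4, against 59.5, 52.0, 58.1 and 58.8 FPKM across sufficient columns 1 to 4. Its interval ran from -0.25 to 0.25, which leaves room for a modest change in either direction.

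Mrpl52 was the member called lower. It encodes a large subunit protein without a bacterial counterpart and had the highest mean level of the family, 113 FPKM over the 5 libraries. Mrpl52 measured 91.5, 76.4, 87.5 and 63.8 FPKM across deficient columns 1 to 4, against 129, 144, 122 and 135 FPKM across sufficient columns 1 to 4. Every deficient column lay below every sufficient column. The deficient mean was 79.8 ± 13.7 FPKM (SD, n = 2), which is 59.2% of the sufficient mean of 135 ± 9.33 FPKM (SD, n = 3), with a log2 fold change of -0.76 (SE 0.13, 95% interval -1.07 to -0.44, limma adjusted p = 0.0387). An exact permutation test on log2(FPKM + 1) (two-sided) reached p = 0.1, which is the minimum for 10 ways to assign 5 libraries. It was run for Mrpl52 alone, the member already called. The sign held in all alternatives, but the call ended with equal totals (log2 fold change -0.55, adjusted p = 0.127), with small RNA genes also removed (-0.57, adjusted p = 0.0934), with quantile normalization (adjusted p = 0.0654), with no filter (0.0988), with a filter of 5 FPKM (0.0541), without sufficient replicate 2 (0.0869) or sufficient replicate 4 (0.0895), and without deficient replicates 1 and 3 (0.0999), deficient replicates 2 and 4 (0.204) or sufficient replicates 1 and 3 (0.0673).

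Mrpl52 (ENSMUSG00000010406.12) lies on chromosome 14, 54426909 to 54429756, on the plus strand in the GENCODE M21 annotation of GRCm38, the build the submitters' notes name as mm10, and it overlaps no other annotated gene. Its upstream sequence is shown because it was the member called, beside those of Mrpl12, whose product forms the stalk of the large subunit and binds the mitochondrial RNA polymerase, and Mrps12, whose product lines the decoding centre. Each line gives the 250 bases before the start site from RefSeq (GRCm38.p6), 5′ to 3′ on the gene's strand, at chr14:54426659-54426908 (plus) for Mrpl52, chr11:120484387-120484636 (plus) for Mrpl12 and chr7:28741822-28742071 (minus) for Mrps12. Capitals mark matches on either strand to 3 motifs of factors known for nuclear genes of mitochondrial proteins, CCGGAAG (ETS family, GABP), GCGCA with any 1 base and GCGC after it (NRF1) and AAGATGGC (YY1).
Mrpl52: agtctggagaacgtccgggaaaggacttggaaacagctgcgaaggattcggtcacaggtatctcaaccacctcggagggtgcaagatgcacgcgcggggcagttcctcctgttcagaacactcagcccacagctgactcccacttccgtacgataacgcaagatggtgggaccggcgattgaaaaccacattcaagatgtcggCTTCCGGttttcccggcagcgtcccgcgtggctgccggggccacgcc
Mrpl12: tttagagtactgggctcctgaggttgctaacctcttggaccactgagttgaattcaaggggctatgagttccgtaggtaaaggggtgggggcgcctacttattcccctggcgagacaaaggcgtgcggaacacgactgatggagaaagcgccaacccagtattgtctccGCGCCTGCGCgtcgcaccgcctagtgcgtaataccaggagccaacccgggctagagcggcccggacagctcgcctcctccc
Mrps12: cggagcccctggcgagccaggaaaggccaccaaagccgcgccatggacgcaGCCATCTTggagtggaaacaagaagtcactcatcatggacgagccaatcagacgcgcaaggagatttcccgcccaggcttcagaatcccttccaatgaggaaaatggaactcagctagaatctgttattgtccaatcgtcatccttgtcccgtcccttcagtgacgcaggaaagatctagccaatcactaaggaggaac

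The upstream stretch of Mrpl52 held 1 ETS match, that of Mrpl12 held 1 NRF1 match and that of Mrps12 held 1 YY1 match. The gene Sars2 starts 172 bases from the GENCODE start of Mrps12, on the opposite strand. The YY1 match of Mrps12 lies beyond that start, within Sars2. Promoter windows of 300 bases (250 before and 50 after the start) were found for 68 of the 77 members, with 74 windows in all. The ETS motif was in 33.8% of these windows, against 19.3% of the windows of all genes tested. The YY1 motif was in 16.2% against 4.88%, and the NRF1 motif in 17.6% against 10.8%. By subunit, the ETS motif was in 29.8% of large and 40.7% of small subunit windows, the YY1 motif in 12.8% and 22.2%, and the NRF1 motif in 21.3% and 11.1%. A match of letters is a description of the window only. Each of these 3 stretches held a match to 1 of the motifs only, so no matches overlap in them.

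Among the other large subunit genes, Mrpl54, Mrpl23 and Mrpl38 had the most negative fold changes without overlap between groups, and none passed the adjusted threshold. Mrpl54, also without a bacterial counterpart, measured 27.3, 39.0, 32.6 and 36.5 FPKM across deficient columns 1 to 4, against 43.3, 42.9, 36.6 and 51.4 FPKM across sufficient columns 1 to 4. As single columns the groups overlapped, while the averaged libraries did not (log2 fold change -0.39, SE 0.15, limma adjusted p = 0.241). Mrpl38 was at 16.3, 16.98, 14.3 and 15.2 FPKM across deficient columns 1 to 4, against 22.1, 17.8, 18.2 and 19.6 FPKM across sufficient columns 1 to 4, so that every deficient column was below every sufficient one (-0.27, SE 0.11, adjusted p = 0.254). Mrpl23, which belongs to the conserved proteins of the large subunit, was at 29.1 ± 0.601 FPKM in deficient libraries, against 36.0 ± 6.23 FPKM in sufficient ones (adjusted p = 0.375). Its single columns overlapped, and a pseudogene of the same name is annotated, so reads may be shared.

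The most abundant large subunit genes beside Mrpl52 did not pass the threshold. Mrpl24, a conserved protein near the exit of the peptide tunnel, measured 99.9, 104, 96.3 and 103 FPKM across deficient columns 1 to 4, against 114, 100.2, 110 and 119.5 FPKM across sufficient columns 1 to 4. Mrpl30 measured 86.7, 89.3, 78.5 and 91.0 FPKM across deficient columns 1 to 4, against 116, 84.1, 103 and 107 FPKM across sufficient columns 1 to 4. Both genes overlapped between groups, sufficient replicate 2 being the lowest sufficient column in each, with fold changes in log2 of -0.13 (SE 0.11) and -0.20 (SE 0.14). Mrpl12 was at 49.0 ± 6.15 FPKM in deficient libraries, against 56.9 ± 4.63 FPKM in sufficient ones (log2 fold change -0.21, SE 0.12, limma adjusted p = 0.422), also with overlap. Mean levels of the 48 large subunit genes ran from 3.53 FPKM for Mrpl17, through a median of 26.1 FPKM, to the level of Mrpl52.

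**Figure D4:**
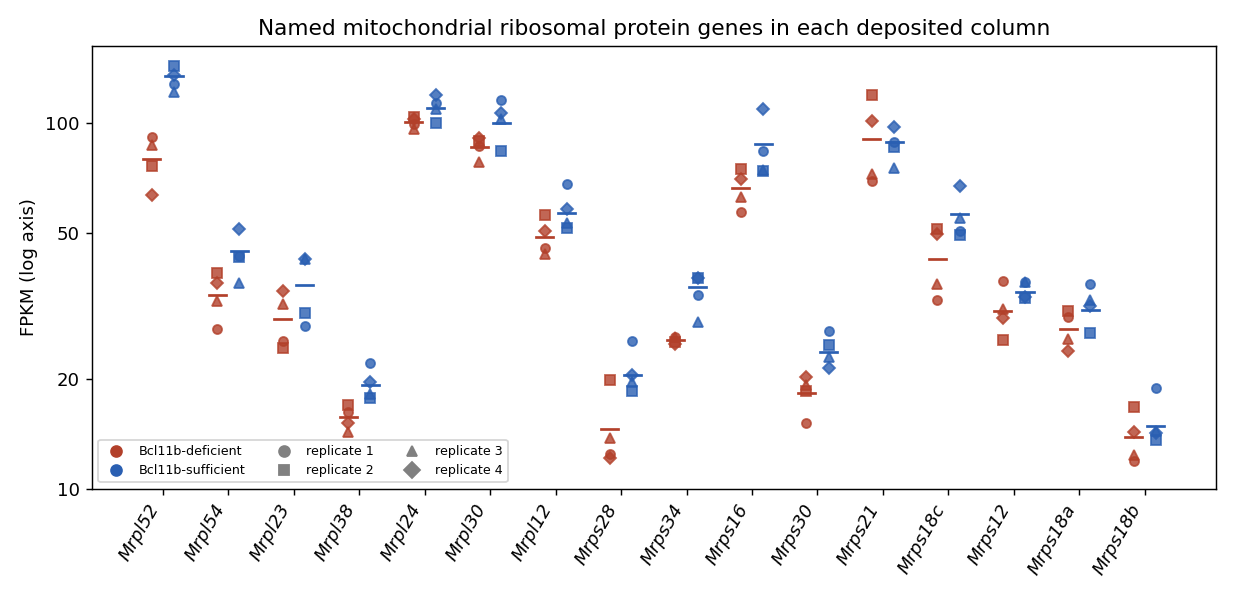
FPKM (log axis) of 16 named members in each deposited column, with deficient columns in red and sufficient columns in blue, the replicate shown by the marker and the mean over averaged libraries by a line. Every red point of Mrpl52 and Mrps34 lies below every blue point, whereas the colours overlap in Mrpl24, Mrpl30, Mrps21 and the 3 Mrps18 genes.

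No small subunit gene passed the adjusted threshold, and the difference between the medians of the subunits was not tested. Mrps28 and Mrps34 had the most negative fold changes. Mrps34, a small subunit protein without a bacterial counterpart, measured 26.0, 25.1, 25.9 and 24.8 FPKM across deficient columns 1 to 4, against 33.8, 37.8, 28.5 and 37.8 FPKM across sufficient columns 1 to 4. No column overlapped, and deficient cells held 71.6% of the sufficient level (log2 fold change -0.46, SE 0.12, limma adjusted p = 0.112). Mrps34 overlaps Nme3 on the same strand and Mapk8ip3 on the opposite strand, and the sources used here do not state whether reads were counted by strand. Mrps28 measured 12.5, 19.9, 13.7 and 12.2 FPKM across deficient columns 1 to 4, against 25.4, 18.5, 19.5 and 20.4 FPKM across sufficient columns 1 to 4 (-0.47, SE 0.13, adjusted p = 0.139). The averaged libraries did not overlap, although deficient replicate 2 lay above sufficient replicates 2 and 3. Without that column the log2 fold change of Mrps28 was -0.65 and the limma adjusted p 0.0430. Without deficient replicate 4, the near-identical partner of that column, they were -0.318 and 0.404. Mrps28 thus passed or failed depending on which column of this pair was kept.

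Mrps16 and Mrps30 had the next most negative fold changes without overlap. Mrps16, a conserved protein of the small subunit body, measured 57.3, 75.02, 62.8 and 70.4 FPKM across deficient columns 1 to 4, against 84.3, 74.1, 74.3 and 109 FPKM across sufficient columns 1 to 4. The averaged libraries did not overlap, although deficient replicate 2 lay above sufficient replicates 2 and 3 (log2 fold change -0.38, SE 0.18, limma adjusted p = 0.336). Mrps30 measured 15.15, 18.45, 19.2 and 20.25 FPKM across deficient columns 1 to 4, against 27.1, 24.8, 22.9 and 21.4 FPKM across sufficient columns 1 to 4, with no column overlapping (-0.36, SE 0.12, adjusted p = 0.186). With Mrps18a and Mrps30 counted in the large subunit, where their products sit, and Mrps36 left out, the medians were -0.13 over 50 large and -0.18 over 26 small subunit genes.

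Mrps7, Mrps9, Mrps10, Mrps15, Mrps22, Mrps24 and Mrps31 were the other small subunit genes whose averaged libraries did not overlap, and none passed the threshold. Among them Mrps7, a conserved protein of the small subunit head, was at 25.07 and 24.93 FPKM in the deficient libraries, against 29.4, 33.7 and 32.9 FPKM in the sufficient ones (-0.34, SE 0.11, limma adjusted p = 0.162), and Mrps9 had the least negative fold change (-0.13, SE 0.10). The other 18 small subunit genes overlapped. Mrps21, the most abundant small subunit gene, measured 69.6, 120, 72.9 and 101 FPKM across deficient columns 1 to 4, against 88.6, 86.3, 75.4 and 97.8 FPKM across sufficient columns 1 to 4. Its deficient libraries lay on both sides of the sufficient ones, with a log2 fold change of 0.00 (SE 0.19). Mrps12 was at 30.7 ± 4.61 FPKM in deficient libraries, against 34.5 ± 1.96 FPKM in sufficient ones (-0.17, SE 0.12, limma adjusted p = 0.521). Mean levels of the 29 genes ran from 6.37 FPKM for Mrps25 to 89.5 FPKM for Mrps21, with a median of 28.5 FPKM.

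The 3 homologues of the bacterial S18 protein, encoded by Mrps18a, Mrps18b and Mrps18c, are known to occupy different places in the mitochondrial ribosome. Mrps18c had the highest level, at 32.9, 51.5, 36.3 and 49.7 FPKM across deficient columns 1 to 4, against 50.6, 49.4, 55.0 and 67.2 FPKM across sufficient columns 1 to 4. Mrps18a followed at 29.5, 30.7, 25.6 and 23.8 FPKM across deficient columns 1 to 4, against 36.4, 26.6, 32.9 and 31.5 FPKM across sufficient columns 1 to 4. Mrps18b was the lowest, at 11.9, 16.7, 12.4 and 14.3 FPKM across deficient columns 1 to 4, against 18.8, 13.6, 14.4 and 14.2 FPKM across sufficient columns 1 to 4. The order of the 3 levels was the same in every column, and the groups overlapped for each gene. Fold changes in log2 were -0.41 (SE 0.19) for Mrps18c, -0.16 (SE 0.13) for Mrps18a and -0.10 (SE 0.15) for Mrps18b, with limma adjusted p = 0.330, 0.571 and 0.772.

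The deficient libraries differed from each other by more than the groups did for 52 of 77 members. This sets a log2 FPKM ratio of 2 single libraries beside a difference of group means of log2(FPKM + 1). The same count was not made over all genes tested, so it does not mark the family out. The average of deficient replicates 2 and 4 was higher than that of replicates 1 and 3 for 59 members, with a median ratio of 1.14 against 1.0 over all genes tested. The ratio ran from 0.587 for Mrpl34 to 1.64 for Mrpl47, and it was at least 1.5 in 4 of 77 members, against 3.04% of all genes tested. Mrpl51, a large subunit protein, measured 13.1 and 19.7 FPKM in deficient replicates 1 and 3, 27.4 and 25.2 FPKM in deficient replicates 2 and 4, and 18.1, 19.0, 19.4 and 21.4 FPKM in sufficient replicates 1 to 4. Mrpl34 went the other way, at 33.9 and 37.1 FPKM in deficient replicates 1 and 3 and 18.3 and 23.3 FPKM in deficient replicates 2 and 4. Mrpl9, Mrpl51, Mrpl34, Mrpl47, Mrps7 and Mki67, the lowest members Mrpl17 and Mrps25, and the list of small subunit genes without overlap were named after their values were seen. Across the 77 genes the log2 ratio of these libraries had a Pearson r of -0.05 with log2 transcript length, a description over genes of the same libraries. Other gene lists also differed between these libraries. All 20 proliferation genes were higher in deficient replicates 2 and 4, with a median ratio of 1.44, as were 6 of 8 NK cell markers (1.37), whereas 2 of 14 macrophage markers were higher there (0.628). Mki67 was at 18.4 and 20.4 FPKM in deficient replicates 1 and 3 and at 31.3 and 32.2 FPKM in replicates 2 and 4. The part of these genes' cells or of proliferation in the members' spread was not tested.

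**Figure D5:**
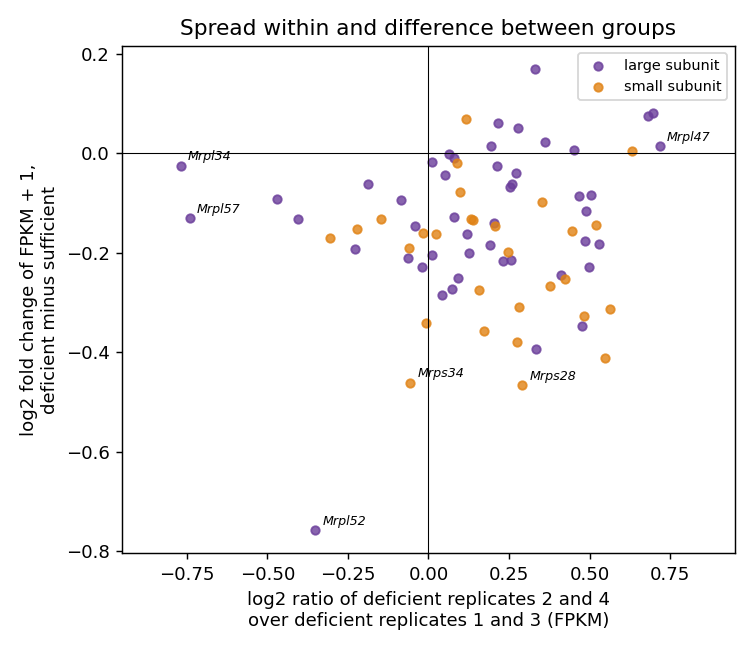
Each point is 1 of the 77 members, with the log2 ratio of deficient replicates 2 and 4 over deficient replicates 1 and 3 on the x axis and the log2 fold change of FPKM + 1 between groups on the y axis, by subunit. Most points lie right of 0 and below 0. A gene's own distance from 0 along x exceeds its distance along y for 52 of the 77 genes, with Mrpl52 among the exceptions. This count was not made over all genes tested.

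The wider machinery of mitochondrial translation was examined through lists chosen by function. No gene of these lists was called by limma in either direction, against 2.63% of all genes tested. Mitoribosomal proteins with other symbols (Dap3, Ptcd3, Chchd1, Aurkaip1, Gadd45gip1 and Ict1) had a median log2 fold change of -0.15, with all 6 below 0. Gadd45gip1, a large subunit protein, was at 16.3 ± 1.81 FPKM in deficient libraries, against 20.6 ± 2.33 FPKM in sufficient ones (-0.32, SE 0.14, adjusted p = 0.282). Aurkaip1, of the small subunit, measured 44.5, 50.7, 44.6 and 49.3 FPKM across deficient columns 1 to 4, against 58.4, 54.7, 55.4 and 55.3 FPKM across sufficient columns 1 to 4, without overlap (-0.23, SE 0.10, adjusted p = 0.290).

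Factors that act on the ribosome had medians near 0. The 14 translation factors had a median of 0.03, with 5 below 0. Those with the lowest p were Gfm2, for ribosome recycling, at 14.4 ± 1.70 against 12.4 ± 0.257 FPKM, and Taco1, a translational activator, at 10.7 ± 0.245 against 9.36 ± 0.401 FPKM (limma adjusted p = 0.449 and 0.446). The 19 mitochondrial aminoacyl-tRNA synthetase and amidotransferase genes had a median of 0.06 and 8 below 0, with Ears2, which charges the glutamate tRNA, at 6.46 ± 1.26 against 8.68 ± 0.155 FPKM (adjusted p = 0.224) and Fars2, for phenylalanine, at 10.9 ± 0.112 against 13.4 ± 0.897 FPKM (limma adjusted p = 0.265). At an unadjusted p under 0.05 these were the 2 lower genes of that list, and Gatc and Mars2 were the 2 higher ones, named after their values were seen. Noa1 and Polg2, described next, were the only genes of their lists at that level, and the other lists of mitochondrial function had 0. The 25 tested assembly and ribosomal RNA modification genes had a median of -0.09, with the GTPase gene Noa1 at 9.69, 10.2, 9.84 and 10.3 FPKM across deficient columns 1 to 4, against 12.5, 12.3, 16.3 and 11.6 FPKM across sufficient columns 1 to 4. The 15 genes of mitochondrial DNA maintenance and expression had a median of -0.08, with Polg2, the accessory subunit of the mitochondrial DNA polymerase, at 7.45 ± 0.458 against 9.98 ± 1.51 FPKM. Among 8 tested regulators of mitochondrial biogenesis the median was -0.05, and Myc, which promotes ribosome synthesis, was at 53.9 ± 7.60 against 62.0 ± 9.99 FPKM (SD, n = 2 and 3, limma adjusted p = 0.565). Proliferation genes had a median of 0.14 with 0 of 20 called.

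The members were spread over the genome, with at most 10 on a single chromosome (chromosome 11). A protein-coding gene starts within 1000 bases on the opposite strand, pointing away, for 18 of 77 members (23.4%), against 10.9% of 9823 protein-coding genes tested. Mrps12 (chromosome 7, 28739641 to 28741820, minus strand) has Sars2, the mitochondrial seryl-tRNA synthetase gene, as such a partner at 172 bases. Mrps34 is paired in this way with Eme2 at 29 bases, Mrps18c with Helq at 29 bases and Mrpl54 with Apba3 at 26 bases. Of the 77 genes, 35 overlap a gene on the opposite strand and 13 one on the same strand, and 36 overlap none. Of the members whose values are given, Mrps28, Mrps34, Mrps18a, Mrps18b, Mrps18c, Mrps30, Mrps7, Mrps9, Mrps25, Mrpl9, Mrpl12, Mrpl17, Mrpl24, Mrpl47 and Mrpl51 have an overlapping gene, so a part of their values may be reads of the neighbour.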

How the data were processed

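RNA was sequenced from sorted cells with a stranded total RNA kit, per the labels' protocols. The deposited values are FPKM for 23997 genes, as named by the authors. Per the submitters' processing notes, tools included the STAR 2.5.1 aligner, Cuffnorm 2.2.1 and Cuffdiff 2.2.1, with trimming by Trim Galore 0.4.2, and the build was mm10; settings, annotation and scaling between libraries are not given. Of 16 value columns, 8 matched the samples and 8 were not used. Depth was estimated from the steps of low FPKM values in 2172 genes with a single annotated transcript and is approximate. Columns of a group under 1.5 times sampling noise, over genes at 150 to 500 fragments, were averaged. The 10614 genes whose mean reached 1 FPKM were tested on log2(FPKM + 1), which understates changes of low genes, using limma 3.58.1 (R 4.3.3; trended prior variance; two-sided), Benjamini-Hochberg adjusted over all genes at a threshold of 0.05; fold changes are deficient minus sufficient. The procedure was tested on simulated data. The members, gene lists, motifs and tests were chosen with earlier results of these data known. Named members are those called, up to 4 largest changes per direction and subunit without overlap, the 3 most abundant per subunit, and Mrpl12, Mrps12, Mrps18a, Mrps18b and Mrps18c. From the functional lists, called genes and up to 2 of the lowest p were eligible. Alternatives covered pseudocount, filter, scaling, empirical Bayes, averaging, replicate blocks and omission of libraries.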

Additional observations from a re-analysis of the deposited data

How the results depend on the processing

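The number of large subunit genes called, 1 in the report, was 0 with no filter, with a filter of 5 FPKM, with equal totals, with quantile normalization and with small RNA genes removed and totals made equal, and 2 with the 8 columns as separate samples; omitting libraries gave 0 to 1. The number of small subunit genes called, 0 in the report (5 at an unadjusted limma p under 0.05), was 5 with the 8 columns as separate samples and 1 with a replicate block over them; omitting libraries gave 0 to 1. The median log2 fold changes turned to 0.0897 (large) and 0.0361 (small) with equal totals, and to 0.0639 and 0.0110 with small RNA genes also removed, where the median of all genes was 0.159; omitting libraries gave -0.211 to -0.0479 and -0.312 to -0.0969, both extremes coming from omission of 1 of the deficient pairs. The deficient share of total FPKM was 104% of the sufficient share for the large and 99.8% for the small subunit, and moved by less than the spread between libraries in all 10 alternatives for each. Calls of the other mitochondrial lists were 0, and 6 with the 8 columns as separate samples.

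Among named members, the sign turned with equal totals for Mrpl24 (0.0837), Mrpl30 (0.0103), Mrps12 (0.0361), Mrps18a (0.0468) and Mrps18b (0.101), and with small RNA genes also removed for Mrpl24 (0.0580), Mrps12 (0.0110), Mrps18a (0.0217) and Mrps18b (0.0772). Omitting libraries gave -0.262 to 0.0669 for Mrps18b and -0.308 to 0.316 for Mrps21, which was -0.0019 with the deeper column of each averaged pair. The Bcl11b call ended at -0.95 with no filter, -0.75 with equal totals and -0.77 with small RNA genes also removed; omitting libraries gave -1.13 to -0.779, with the call lost without sufficient replicate 2 or any averaged pair. The cause was not tested.

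Replicate numbers shared by the groups were not taken to pair the samples. Deviations of columns with the same number correlated at 0.0293, 0.0566, 0.126 and 0.0911, of which 3 are under the bound of 0.1. Deficient replicates 2, 3 and 4 each correlated best with their own number, and deficient replicate 1 with sufficient replicate 2 (0.130). Between the shallower replicates 1 and 2 and the deeper replicates 3 and 4, correlations ran from -0.108 to 0.0197. Among columns of like depth they ran from -0.0119 to 0.130. Depth alone was not taken as a block, and the odd and even numbers used below do not follow it. With the replicate block over 8 columns, 1 large and 1 small subunit gene were called and 1418 of all genes, against 1851 without it; with odd and even numbers as a replicate block over the averaged samples, 1 large and 0 small subunit genes were called. Taking the 8 columns as separate samples counts near-identical columns more than once. The choices of the deeper column and of subunits by structure were added after seeing the data. Omitting a pair leaves 1 deficient library, which is assumed to vary like the sufficient ones, or 2 against 2. With 5 libraries, the unadjusted interval of a typical member reached about 0.3 on the log2 scale to either side. Larger changes also failed the adjusted threshold, among them Mrps28 (-0.466, limma adjusted p = 0.139) and Mrps34 (-0.461, limma adjusted p = 0.112).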
